A study of Mus musculus with 8 samples.

Results

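Chromatin regulator genes encode the enzymes, remodellers and readers that set DNA and histone marks or move nucleosomes. The loops anchored at 45 such genes were examined here in lists of FOXA1 and HNF4G chromatin loops from mouse pancreatic cancer cells. The genes were chosen by name, from 6 families of chromatin regulators, and a loop was assigned to a gene when one of its 2 anchors (the genomic intervals that a loop joins) lay within 2 kb of an annotated transcript start of that gene. Of the 45 genes, 42 had such an anchor, out of 10802 protein-coding genes with an anchor at a start among 21951 annotated. They held 65 of the 30542 anchors. With FOXA1, loops at their starts numbered 542 of 125623 for the liver mets and 491 of 104136 for the tumor cells. With HNF4G they numbered 337 of 78098 and 420 of 76323. Where 4 values are given for a gene or family below, they keep this order, with the FOXA1 lists (liver mets, then tumor) before those of HNF4G.

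The data came from Hi-ChIP, in which chromatin is ligated in place, so that distant fragments that touch are joined, and is then immunoprecipitated for a chosen protein. The cells were 2 lines from the KPC mouse, a genetically engineered model of pancreatic cancer, one from a primary tumor and its matched line from a liver metastasis (liver mets). Both lines were labelled wild type and untreated and were grown in the same serum-containing medium, so each site is represented by 1 cell line. Each of the 4 groups (FOXA1 or HNF4G, in tumor or in liver mets) had 2 replicates and 1 loop list that covered both, so no spread between replicates could be calculated and no test between groups was run. Intervals below are 95% intervals for counting error only. They count each loop as independent, which loops with a common anchor are not, and sequencing depth is unknown. At the starts of epithelial marker genes the lists held between 8 loops (Epcam in FOXA1 tumor) and 62 loops (Cdh1 in FOXA1 liver mets). No loop was listed at Alb, Ttr, Ptprc, Cd3e, Pecam1, Cdh5 or Dcn, whereas Apoa1, Col1a1 and Pdgfra had 1 to 14 loops in each list. A loop at a start is not a measure of expression.

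FOXA1 is a pioneer factor of the forkhead family, able to bind sites in closed chromatin, and HNF4G is a nuclear receptor related to HNF4A. Both work through distal enhancers, which reach promoters by looping, and they rely on chromatin regulators for the opening and marking of those enhancers. SWI/SNF complexes slide or evict nucleosomes, the KMT2 enzymes and EP300 or CREBBP mark enhancers by methylation and acetylation of histone H3, Polycomb complexes hold genes silent, and DNMT and TET enzymes add and oxidise methyl groups on DNA. Genes of these families, ARID1A, KMT2D, KMT2C, PBRM1 and KDM6A among them, are recurrently mutated in pancreatic cancer.

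Promoter windows of 300 bases (250 before to 50 after the start, RefSeq, GRCm38.p6) were held for 34 of the 45 genes, 46 windows in all. The FOXA core letters TGTTTAC, searched on both strands, were found in the windows of 3 genes (Kdm2b, Eed and Brd2). Of all 32851 promoter windows, 3.65% held these letters. The HNF4 letters CAAAGTCCA were in 0.475% of all windows and in none of the 46. The stretches around the 3 matches are shown because each lies inside a loop anchor of its gene. The match began 44 bases before a start of Kdm2b (chr5:122989127-122989153), 150 bases before one of Eed (chr7:89981110-89981136) and 226 bases before one of Brd2 (chr17:34120051-34120150). The Kdm2b and Brd2 starts are internal ones, 0.724 kb and 2.73 kb downstream of the 5′ end of the gene, so both matches lie inside the gene, whereas the Eed start is within 7 bases of its 5′ end. All are given 5′ to 3′ on the minus strand, the strand of the 3 genes, with the match in capitals. The Kdm2b and Eed stretches fell in annotated exons, of Kdm2b itself and of E230029C05Rik, and were kept to 27 bases. The Brd2 stretch lay outside any annotated exon.
Kdm2b: tcggcaacaaTGTTTACgttccgggga
Eed: gagaagttccGTAAACActaactcgaa
Brd2: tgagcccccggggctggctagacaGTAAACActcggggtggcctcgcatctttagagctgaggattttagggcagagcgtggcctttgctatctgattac
The distal end of a loop that was present in all 4 lists is shown as well. The distal anchor of the Chd4 loop with the highest values (chr6:124828378-124831431) held 1 FOXA match, in an intron of Cdca3 at chr6:124830662-124830768, and no HNF4 match. It is shown because it was the only one of 5 partner anchors searched that held the FOXA letters. The other 4, of Bmi1, Kdm6b, Ep300 and Tet3 loops, held neither motif. That of Kdm6b is not a distal end but another anchor at the starts of Kdm6b itself. The stretch is plus strand.
Chd4 partner: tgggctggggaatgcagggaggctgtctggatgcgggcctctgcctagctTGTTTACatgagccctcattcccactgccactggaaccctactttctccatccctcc
Over whole sets, the central 1000 bases of the anchors at the chromatin regulator starts held a FOXA match in 10 of 65 anchors (15.4%), beside 15.0% of the 13819 anchors with a start. Their partner anchors without a start held one in 80 of 411 (19.5%), beside 23.8% of all 16723 anchors without a start. HNF4 matches were found in 0 of the 65 and in 8 of the 411 (1.95%), beside 1.48% and 1.97%. A match is a description of letters and does not show binding.

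The number of loops per gene varied widely within every family. The median over the 42 genes with an anchor was 7.5, 7.5, 5.5 and 7.5 loops in the 4 lists, and that over all 10802 genes with an anchor was 7, 6, 5 and 5. Summed over the lists, the 42 genes with an anchor had a median of 28.5 loops, beside 23 for all genes. A total of 37 genes had loops in all 4 lists. Kdm4a, Hdac3 and Tet1 had no anchor within 2 kb of a start, and the nearest anchors lay 6.87 kb, 7.69 kb and 10.9 kb away. Counts of neighbouring genes can overlap: for 9 of the genes an anchor at the start also held the start of another protein-coding gene, such as Ccdc77 beside Kdm5a, Commd3 beside Bmi1, Marcksl1 beside Hdac1 and H2-DMa beside Brd2, so their loops cannot be told apart from those of the neighbour.

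**Figure D1:**
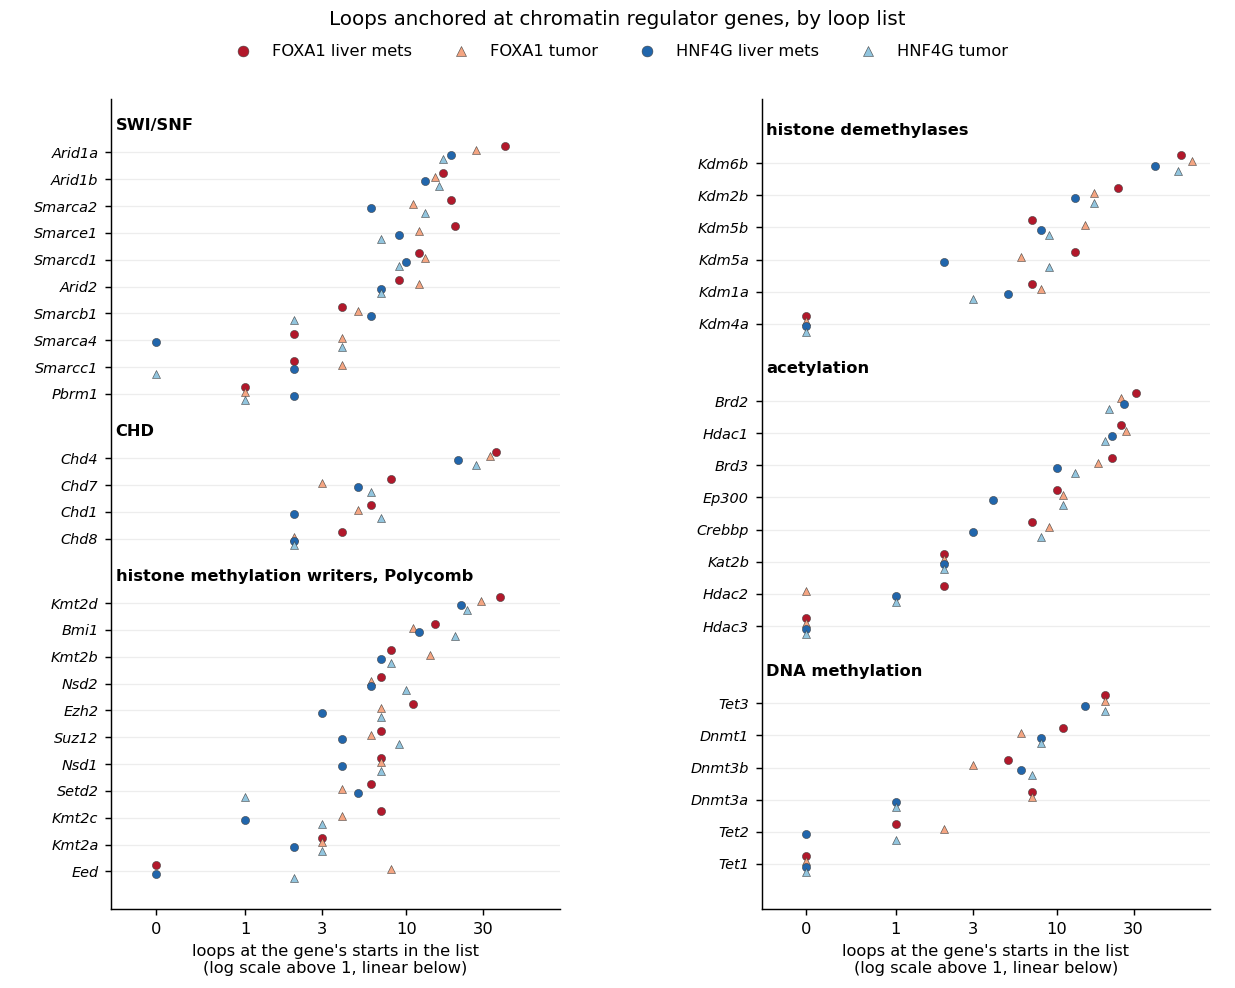
Loops at the starts of each of the 45 genes (rows, grouped by family and ordered by their sum) in each of the 4 loop lists; the horizontal axis is the number of loops, on a log scale above 1, and each point is 1 list. Kdm6b lies farthest to the right with 41 to 69 loops per list, and Kdm4a, Hdac3 and Tet1 lie at 0.

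Among the SWI/SNF subunits, Arid1a, the DNA-binding subunit of the BAF complex, had the most loops, with 41 and 27 in the FOXA1 lists of liver mets and tumor and 19 and 17 in the matching HNF4G lists. Its paralog Arid1b had 17, 15, 13 and 16 loops, so the gap between the paralogs was found mainly in the FOXA1 lists. Smarca2, one of the alternative ATPases of the complex, had 19, 11, 6 and 13 loops, whereas the other ATPase, Smarca4, had 2, 4, 0 and 4. Smarca2 had 3 anchors at its starts and Smarca4 had 1. The Smarca2 anchors chr19:26746749-26749208 and chr19:26752892-26755393 lie at internal starts, far downstream of the 5′ end of the gene at chr19:26605050. The gap is thus not one between the main promoters alone. The accessory subunits Smarce1 and Smarcd1 had between 7 and 20 loops in each list. Arid2, which marks the PBAF form of the complex, had 9, 12, 7 and 7 loops and Pbrm1, the bromodomain subunit of the same form, had 1 or 2 in every list. The core subunits Smarcb1 and Smarcc1 had at most 6 loops in any list.

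For the CHD remodellers, Chd4, the ATPase of the NuRD complex, stood far above the rest with 36, 33, 21 and 27 loops. Its sum of 117 was higher than that of 95.5% of the protein-coding genes with an anchor at a start. Chd7 had 8, 3, 5 and 6 loops, Chd1, which binds methylated histone H3 at active genes, had 6, 5, 2 and 7, and Chd8 had 4, 2, 2 and 2.

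Of the histone methylation writers, Kmt2d, an enhancer H3K4 methyltransferase, had the most loops, with 38, 29, 22 and 24. Its close relative Kmt2c had 7, 4, 1 and 3. Kmt2b, which acts at promoters, had 8, 14, 7 and 8 loops and was highest in the FOXA1 tumor list. Bmi1, a ring finger protein of Polycomb repressive complex 1, had 15, 11, 12 and 20 loops and was highest in HNF4G tumor. The PRC2 subunits were lower, with 11, 7, 3 and 7 loops at Ezh2, its catalytic subunit, and 7, 6, 4 and 9 at Suz12. Eed, the PRC2 subunit that reads the methyl mark, had no loop in either liver mets list but 8 loops in FOXA1 tumor and 2 in HNF4G tumor. The H3K36 methyltransferases Nsd1 and Nsd2 had between 4 and 10 loops in each list, Setd2 had 1 to 6, and Kmt2a had 2 or 3.

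Kdm6b, a demethylase of the Polycomb mark on histone H3, had the most loops of all 45 genes. It had 59 and 69 FOXA1 loops in liver mets and tumor and 41 and 57 HNF4G loops, more in sum than 99.3% of protein-coding genes with an anchor at a start. Its starts lie on 4 neighbouring anchors, and 12 of its loops were in all 4 lists. The CXXC-domain demethylase Kdm2b had 24, 17, 13 and 17 loops. The H3K4 demethylases Kdm5b and Kdm5a had 7, 15, 8 and 9 and 13, 6, 2 and 9 loops, so that Kdm5b was highest in FOXA1 tumor and Kdm5a in FOXA1 liver mets. Kdm1a, the demethylase also known as LSD1, had 7, 8, 5 and 3 loops.

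The BET-family readers of acetylated histones and one deacetylase had the most loops among the acetylation genes. Brd2 had 31, 25, 26 and 21 loops, Brd3 had 22, 18, 10 and 13, and the deacetylase Hdac1 had 25, 27, 22 and 20. The acetyltransferase paralogs were alike in one respect: Ep300 had 10, 11, 4 and 11 loops and Crebbp 7, 9, 3 and 8, each lowest in HNF4G liver mets. Kat2b had 2 loops in each list and Hdac2 at most 2. Among the DNA methylation genes, Tet3, which oxidises methylcytosine, had 20, 20, 15 and 20 loops, and Tet2 at most 2. The maintenance methyltransferase Dnmt1 had 11, 6, 8 and 8 loops. Of the de novo methyltransferases, Dnmt3b had 5, 3, 6 and 7 loops and was higher in the HNF4G lists, whereas Dnmt3a had 7 and 7 loops with FOXA1 but 1 and 1 with HNF4G.

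Loops present in all 4 lists made up 52 of the 1193 distinct loops at these genes (4.36%), beside 5.54% of all distinct loops with a promoter anchor, that is, an anchor within 2 kb of any start. Loops found in a single list numbered 799 (67.0%, beside 65.7%). Each loop carried a deposited value, read here as the −log10 of an adjusted p and bounded at 20. In each family, the loop in all 4 lists with the highest sum of its 4 values was taken for description; values of different lists are not on one scale, and a ranking by the highest single value would name other loops for the acetylation and the Polycomb genes (Brd2 to Ring1, with 5.53 in HNF4G tumor, and a 13.1 kb Bmi1 loop, with 2.33). For Kdm6b, it was the 7.18 kb loop between its own anchors chr11:69407668-69412714 and chr11:69413705-69421040, with values of 3.95, 2.61, 9.31 and 20, the last at the upper bound. Ep300 was joined to the start of Rbx1, a ubiquitin ligase gene 119 kb away, with values of 1.71, 1.99, 2.60 and 3.90. The Chd4 loop spanned 270 kb to the starts of Cdca3 and Usp5, with values of 3.08, 1.72, 1.85 and 1.86. Tet3 was joined to an anchor in the body of Dguok 37.1 kb away (1.08, 5.80, 0.886 and 1.95) and Bmi1 to an intergenic anchor 9.08 kb away (0.0792, 1.00, 2.28 and 1.25). Most loops of every list had a value below 2, so a loop present in all lists can rest on low values in each. Only 8.12%, 7.74%, 10.4% and 7.38% of the loops at these genes had a value of 2 or more. Among all promoter loops it was 9.57%, 8.28%, 7.80% and 8.02%. The loop counts given here thus rest mainly on loops with low values.

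Genes with many loops reached several neighbours in every list. Arid1a was joined to the start of Pigv (83.0 kb) and to the body of Zdhhc18 (129 kb, values of 5.89, 1.27, 2.72 and 1.49), Brd2 to the starts of Ring1, itself a Polycomb gene (95.3 kb), and Rxrb (80.6 kb), and Kmt2d to those of Prkag1, Rhebl1, Lmbr1l and Tuba1b. Kdm6b was joined to 2 anchors at starts of Chd3, a NuRD remodeller (44.3 kb and 39.4 kb), and to several anchors in the body of Dnah2. Nsd2 was joined to the start of Fgfr3 (98.6 kb), a receptor gene. A single loop joined genes of the set to each other. It lay between Setd2 and Smarcc1, 400 kb apart, in the FOXA1 liver mets list alone with a value of 1.77. Every listed loop stays within a single chromosome, so most pairs of the genes could not be joined. The pairs near enough to be joined were not counted, and neither loops between genes nor shared partner anchors were set beside a background. No partner anchor was shared by more than 2 of the genes. There were 12 shared anchors among 948 partner anchors, and the first of these along chromosome 15, at the start of Dnajc22 (chr15:99096698-99100406), served Kmt2d and Smarcd1.

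**Figure D2:**
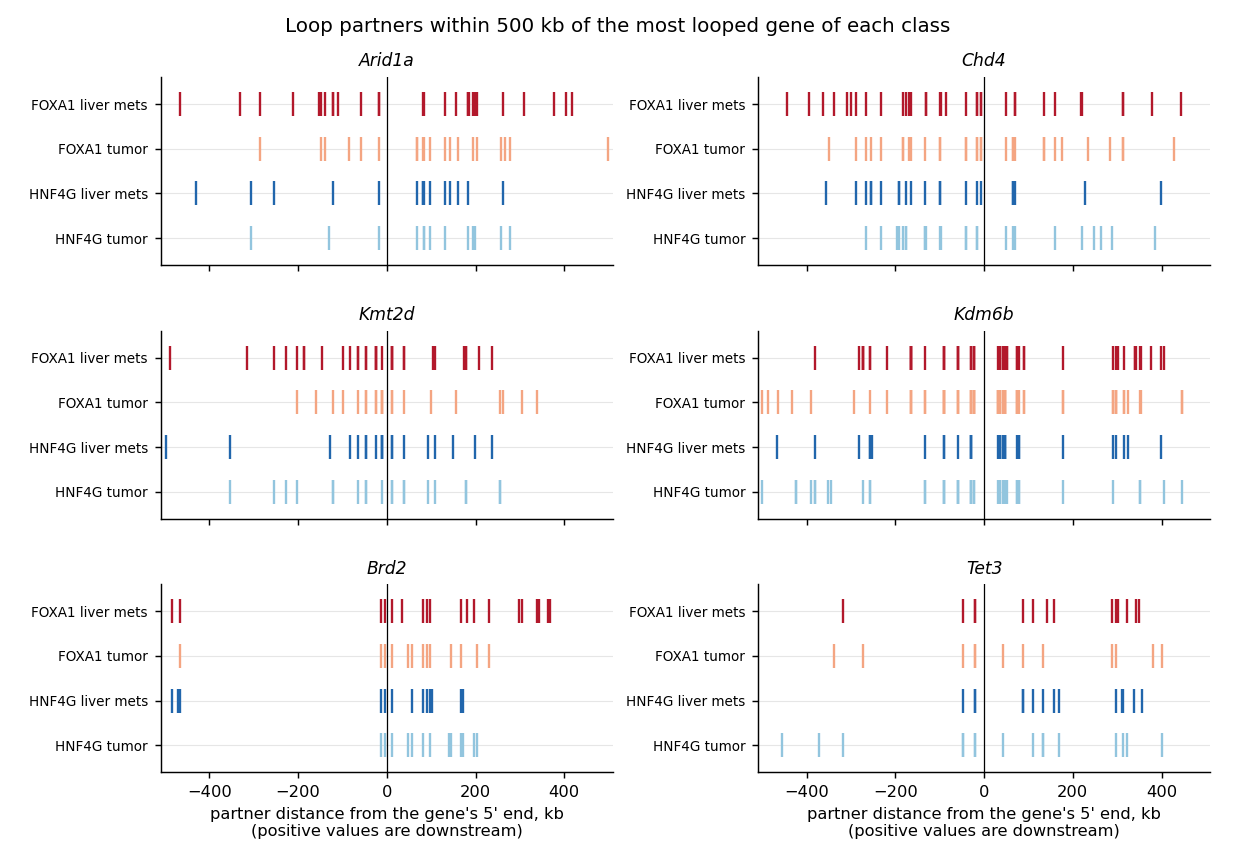
Partners of the most looped gene of each family within 500 kb, as the distance in kb of the partner anchor from the 5′ end of the gene (positive values are downstream), with 1 line of ticks per loop list; loops between a gene's own anchors are left out. Many ticks recur at the same distance in all lists, as for Kdm6b within 100 kb on either side of its 5′ end.

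The share of loops that ended at a start of another gene differed between the families. Over all 45 genes it was 57.0%, 56.8%, 59.3% and 60.0%, beside 53.0%, 54.1%, 54.9% and 57.3% of all promoter loop ends. SWI/SNF genes were below this background, with 44.1% (interval 35.8% to 52.8%), 43.3% (34.2% to 52.9%), 47.3% (36.3% to 58.5%) and 44.7% (34.1% to 55.9%), and the interval left out the background in all lists but HNF4G liver mets. Arid1b weighed on these shares, with 2 of 17, 1 of 15, 3 of 13 and 3 of 16 loops ending at another start. Its loops all came from 1 anchor, and the family share without this gene was not calculated. The lower share can therefore not be ascribed to the family as a whole. Histone demethylase genes were above it in all 4 lists, with 69.1% (59.9% to 77.0%), 65.2% (56.1% to 73.3%), 66.7% (54.9% to 76.6%) and 67.4% (57.4% to 76.0%), where the HNF4G liver mets interval reached the background. Kdm6b weighed on these shares, with 44 of 59, 46 of 69, 27 of 41 and 41 of 57 loops ending at another start. The family share without Kdm6b was not calculated, so the higher share can not be ascribed to the family as a whole. Counts for single genes leave out loops between a gene's own anchors. The family shares count such a loop where an anchor also holds another gene's start. Shares above the background in every list were also found for acetylation genes (64.6%, 65.2%, 61.8% and 60.5%) and CHD genes (57.4%, 67.4%, 70.0% and 64.3%). Every CHD interval held the background, however (44.2% to 69.7%, 52.5% to 79.5%, 52.1% to 83.3% and 49.2% to 77.0%). So did both HNF4G intervals of the acetylation genes (49.9% to 72.4% and 49.3% to 70.8%). Chd4 had 24 of 36, 24 of 33, 18 of 21 and 21 of 27 loops ending at another start. The 81 other chromatin regulator genes listed for comparison below were above the background as well (64.0%, 64.2%, 68.0% and 66.4%). A share above it was thus not particular to the demethylases. Partners lay upstream of the 5′ end of the gene in 918 of 1739 loops (52.8%), from 44.1% for SWI/SNF genes to 63.2% for DNA methylation genes. The side was taken from the 5′ end also for loops at internal starts. Smarca2, with anchors at such starts, had 6 of 44 partners upstream. The same share over all genes was not calculated, so the range between families has no background beside it.

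**Figure D3:**
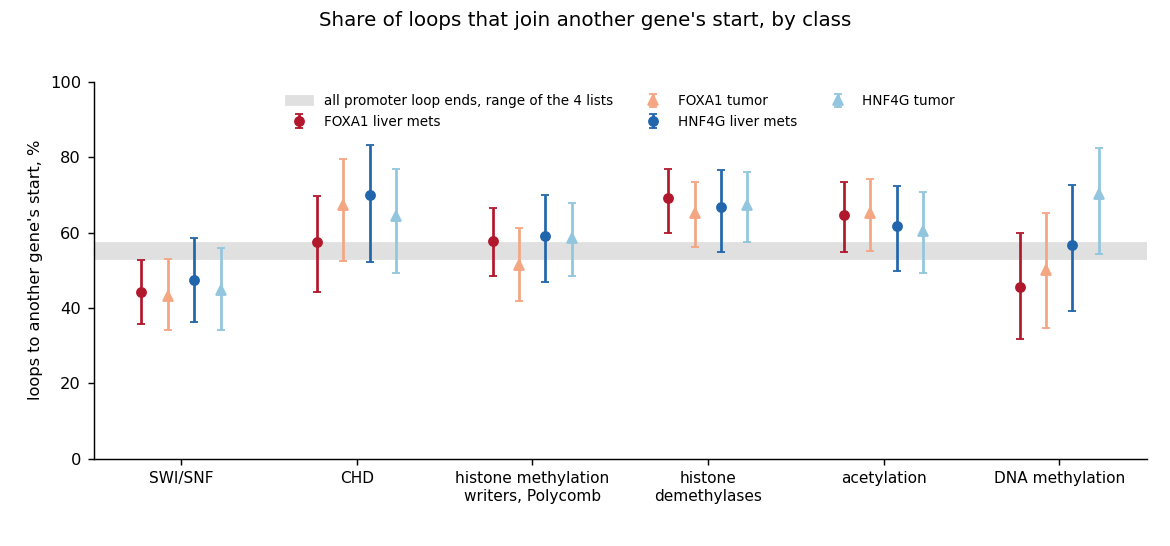
Percentage of loops that end at a start of another gene, by gene family and loop list, with Wilson 95% intervals as bars; the grey band is the range of all promoter loop ends over the 4 lists (53.0% to 57.3%). SWI/SNF points lie below the band, and histone demethylase, acetylation and CHD points above it.

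The first comparison asked how the loops at these genes differed between liver mets and tumor with the same factor. With FOXA1 the 45 genes together had 542 loops in liver mets against 491 in tumor, giving a ratio of 1.10 (0.975 to 1.25), while all promoter loops had a ratio of 1.19. Relative to all promoter loops of their list, the ratio was 0.931 (0.822 to 1.05), which did not differ from 1 beyond counting error. With HNF4G they had 337 loops in liver mets and 420 in tumor. The ratio of loop numbers was 0.802 (0.693 to 0.928), while all promoter loops had a ratio of 0.987, and the ratio of shares of promoter loops was 0.813 (0.702 to 0.940). The HNF4G loops at chromatin regulator genes were therefore fewer in liver mets both in number and as a share of promoter loops, and without Kdm6b, the gene with the most loops, the ratio of shares was 0.826 (0.706 to 0.966). Among loops with a deposited value of 2 or more the direction turned, with 35 loops in liver mets against 31 in tumor and a ratio of shares of 1.18 (0.704 to 1.97).

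By family, the HNF4G ratio of shares was lowest for the histone methylation writers and Polycomb genes, at 0.711 (0.511 to 0.985, 66 loops against 94), the CHD genes, at 0.724 (0.437 to 1.18, 30 against 42), and the histone demethylases, at 0.736 (0.532 to 1.01, 69 against 95). For SWI/SNF genes it was 0.986 (0.706 to 1.38, 74 against 76), for acetylation genes 0.906 (0.644 to 1.27) and for DNA methylation genes 0.821 (0.490 to 1.37). Pooled, the histone methylation writers and demethylases had a ratio of 0.724 (0.576 to 0.907) and the SWI/SNF and CHD remodellers one of 0.893 (0.679 to 1.17). The intervals of the families overlap one another, and a difference between families was not tested. With FOXA1 the 6 family ratios lay between 0.806 and 1.06, and every interval held 1. In 81 other chromatin regulator genes, listed for comparison and 72 of them with an anchor, the HNF4G ratio of shares was 0.874 (0.792 to 0.964, 760 loops against 881) and the FOXA1 ratio 0.967 (0.889 to 1.05).

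The lower number of HNF4G loops in liver mets was found among long loops. At spans of 100 kb or more the 45 genes had 200 loops in liver mets against 288 in tumor, giving a ratio of 0.694 (0.577 to 0.835), while all promoter loops of that span had a ratio of 0.930. Below 100 kb they had 137 and 132 loops, a ratio of 1.04 (0.811 to 1.33), beside 1.07 for all promoter loops. Relative to promoter loops of the same span, the long loops had a ratio of 0.747 (0.620 to 0.898) and the shorter ones of 0.972 (0.759 to 1.24). From 500 kb upwards the numbers were 64 and 105, a ratio of 0.610 (0.440 to 0.840), beside 0.873. Long loops thus made up 59.3% of HNF4G loops at these genes in liver mets and 68.6% in tumor, a difference of -9.22 percentage points (-16.0 to -2.35), while the shares over all promoter loop ends were 55.5% and 59.1%. With FOXA1 the shares were 69.6% and 66.0%, a difference of 3.57 points (-2.12 to 9.26), and the loop numbers at 100 kb or more were 377 and 324, a ratio of 1.16 (1.00 to 1.35) beside 1.26. The median span of the loops at the 45 genes was 215.0 kb, 193.8 kb, 144.0 kb and 201.5 kb, and exceeded that of all promoter loop ends in every list (173.8, 150.1, 124.3 and 143.5 kb). That of the 81 other chromatin regulator genes did so as well (192.1, 178.3, 140.9 and 184.2 kb). At those 81 genes the share of HNF4G loops of 100 kb or more was also lower in liver mets (58.8%) than in tumor (66.1%). With FOXA1 their shares were 67.7% and 65.6%. A lower share of long HNF4G loops in liver mets was thus not particular to the 45 genes.

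**Figure D4:**
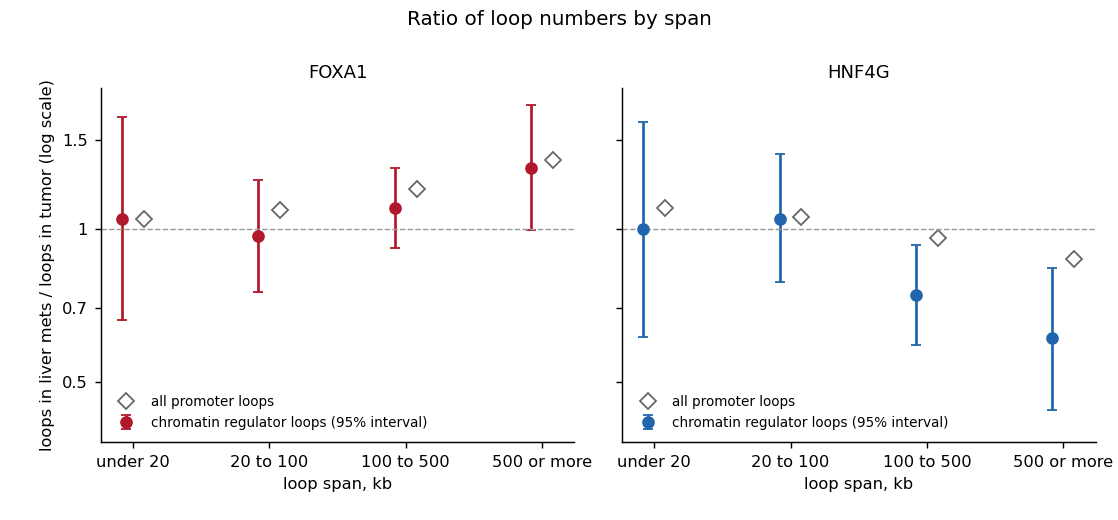
Number of loops in liver mets divided by the number in tumor (vertical axis, log scale), by loop span in kb, for FOXA1 (left) and HNF4G (right). Filled points are loops at the 45 genes with exact 95% intervals and open diamonds are all promoter loops; the HNF4G points at 100 to 500 kb (0.743) and at 500 kb or more (0.610) lie below the diamonds (0.960 and 0.873).

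Single genes were compared by their share of the promoter loops of each list, after adding 1 loop, where both lists together had at least 10 loops; a ratio of at least 1.5-fold is called higher or lower. With HNF4G, 27 of the genes could be compared, and 0 were higher in liver mets, beside 12.7% of the 5439 genes compared in all, while 9 (33.3%) were lower, beside 14.1%. The median log2 ratio was -0.33 for these genes and 0.02 for all. Only 7 of the 27 had a log2 ratio above 0. Kdm5a was lowest, with 2 loops in liver mets against 9 in tumor, a log2 ratio of -1.72. It was followed by the acetyltransferase genes Ep300, with 4 loops against 11 (-1.24), and Crebbp, with 3 against 8 (-1.15). The others were Smarca2 (6 against 13), Ezh2 (3 against 7), Suz12 (4 against 9), Bmi1 (12 against 20), Nsd1 (4 against 7) and Nsd2 (6 against 10), so 5 of the 7 histone methylation writers and Polycomb genes compared were lower and 4 of the other 20; this split was not tested. At Kdm5a the loops of 100 kb or more were 0 against 8 and at Ep300 1 against 10. The highest ratios were those of Smarce1 (9 loops against 7, log2 0.34), Brd2 (26 against 21, 0.31) and Arid1a (19 against 17, 0.17), none of them past the fold.

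Single genes had too few loops to be judged alone. For none of the 27 genes did the exact interval of the ratio leave out 1, as it did for 2.21% of all genes compared; for Kdm5a the ratio of shares without the added loop was 0.225 (0.0237 to 1.09). Of the 9 lower genes, 8 were among the 16 with 10 to 19 loops, where 16.7% of all genes were lower, and 1 was among the 11 with 20 or more, where 11.2% were.

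With FOXA1, 31 genes could be compared, and their calls were close to or below the background. In liver mets 2 were higher (6.45%, beside 10.3% of the 6876 genes compared) and 3 were lower (9.68%, beside 13.2%), and the median log2 ratio was -0.05 for these genes and for all. The higher ones were Chd7, with 8 loops in liver mets against 3 in tumor (log2 0.92), and Kdm5a, with 13 against 6 (0.75), and the next was Dnmt1, with 11 against 6 (0.53). The lower ones were Kdm5b, with 7 against 15 (-1.25), Kmt2b, with 8 against 14 (-0.98), and Arid2, with 9 against 12 (-0.62). No interval of the 31 left out 1, and 1.60% of all genes compared had one that did. Eed, with 0 loops in liver mets against 8 in tumor, was under the minimum of 10 loops, with an interval of 0 to 0.494 for the ratio of shares.

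**Figure D5:**
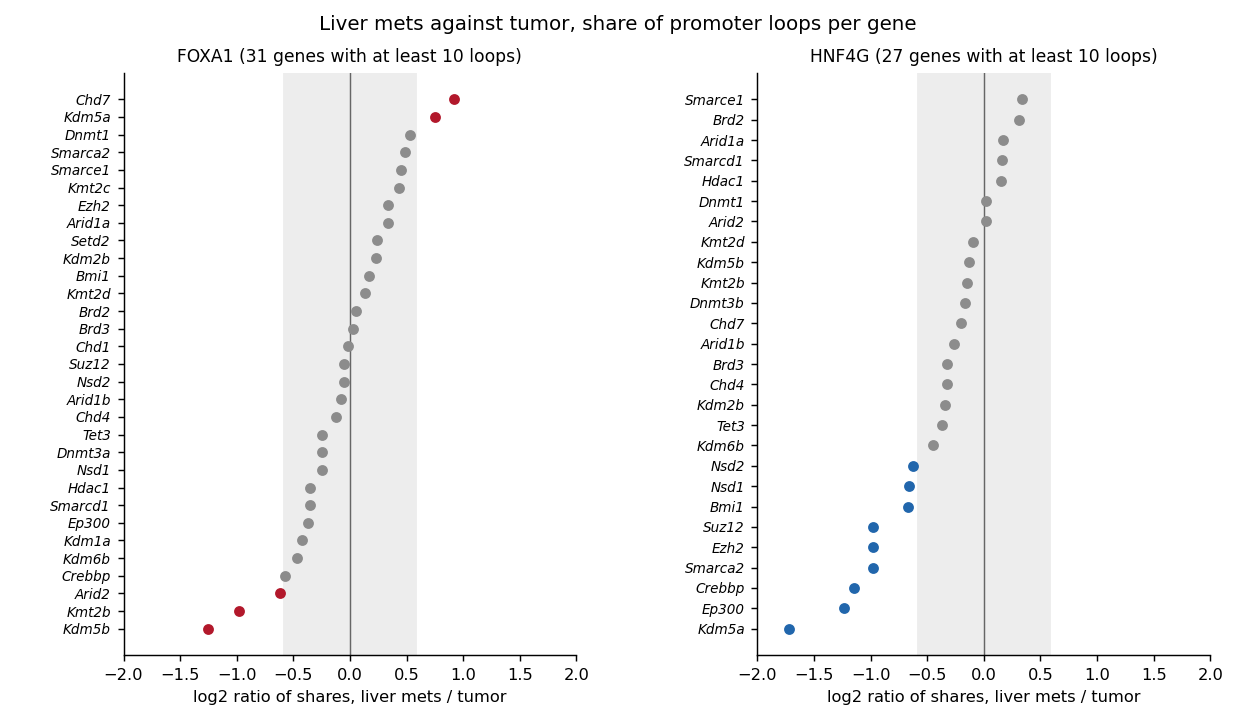
Log2 ratio of the share of promoter loops in liver mets over tumor for each gene with at least 10 loops, with FOXA1 (left, 31 genes) and HNF4G (right, 27 genes), ordered by ratio; the grey band marks less than 1.5-fold and points outside it are coloured. The HNF4G points lie mostly left of 0, with Kdm5a lowest at -1.72, whereas the FOXA1 points lie on both sides.

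The second comparison set the factors side by side in the same cells; it shares its lists with the first. In tumor the 45 genes had 491 FOXA1 and 420 HNF4G loops, and the ratio of shares was 0.903 (0.791 to 1.03). Divided by all loops of each list in place of promoter loops, it was 0.857 (0.751 to 0.978), an interval that leaves out 1. Relative to promoter loops of the same span, the FOXA1 over HNF4G ratio was 1.02 (0.804 to 1.29) below 100 kb, 0.846 (0.720 to 0.995) at 100 kb or more and 0.654 (0.488 to 0.875) at 500 kb or more, where there were 90 FOXA1 and 105 HNF4G loops. Of 29 genes compared, 2 had a higher FOXA1 share (6.90%, beside 13.6% of all genes): Eed, with 8 FOXA1 loops against 2 HNF4G loops (log2 1.21), and Kdm1a, with 8 against 3 (0.80). Kmt2b followed with 14 against 8 (0.36). A lower FOXA1 share was found for 8 genes (27.6%, beside 16.9%), lowest for Dnmt3b with 3 against 7 (-1.37), Bmi1 with 11 against 20 (-1.18) and Nsd2 with 6 against 10 (-1.02). Among genes with at least 10 loops, Bmi1 was the only one of the set whose interval left out 1 in any of the 4 comparisons, with a ratio of 0.425 (0.184 to 0.930); 3.64% of all genes had such an interval in this comparison. The other lower genes were Kdm5a, Dnmt1, Suz12, Chd1 and Smarca2.

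In liver mets they had 542 FOXA1 and 337 HNF4G loops, a ratio of 1.61 (1.40 to 1.85), near the 1.56 of all promoter loops, and the ratio of shares was 1.03 (0.901 to 1.19). Of 30 genes compared, 3 had a higher FOXA1 share (10.0%, beside 9.99% of all genes). They were Kdm5a, with 13 FOXA1 loops against 2 HNF4G loops (log2 1.58), Ezh2, with 11 against 3 (0.95), and Smarca2, with 19 against 6 (0.88). A lower share was found for 3 genes (10.0%, beside 18.2%), namely Smarcb1 (4 against 6, -1.12), Dnmt3b (5 against 6, -0.86) and Kdm5b (7 against 8, -0.81). Kdm5a, Ezh2 and Smarca2 were each also among the genes with fewer HNF4G loops in liver mets than in tumor, and both comparisons use the same HNF4G liver mets list. By undivided loop numbers, the list with the most loops was FOXA1 liver mets alone for 17 genes, FOXA1 tumor for 11 and HNF4G tumor for 5. It was HNF4G liver mets for 2 (Smarcb1 and Pbrm1, with 6 and 2 loops there), and the remaining genes with an anchor were tied. These numbers follow the length of the lists, which held 89230, 75229, 57348 and 58100 promoter loops. The same division over all genes was not calculated, so no preference for a list can be read from it.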

How the data were processed

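Hi-ChIP was performed by the authors in 8 samples (2 replicates in each of 4 groups). Reads were aligned to mm10 with HiC-Pro (version 3.1.0 per the submitters' processing notes), with default removal of duplicates and assignment to DpnII fragments, and loops were called with hichipper. Both replicates of a group were deposited as 1 loop list, and how they were joined is not stated. Each list deposited by the authors gives 2 anchors and 1 unnamed value per loop, taken as the −log10 of an adjusted p from the values alone. It follows the span of the loop and is tied over many loops, so values are not comparable between lists loop by loop.

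Starts were taken from GENCODE M21 (GRCm38, the assembly of mm10), including all transcripts of a gene. A loop belonged to a gene when an anchor lay within 2 kb of a start, and its span was the distance between anchor midpoints. Coordinates count from 1. Ratios of loop numbers and of shares (loops over promoter loops of the list) have exact (Clopper-Pearson) intervals, conditional on both counts together, other shares have Wilson intervals, and differences of shares have Newcombe intervals. The ratio of ratios in the flagged results has a Woolf interval on counts with 0.5 added. Genes were called at 1.5-fold, with 1 loop added to each count and at least 10 loops in both lists. The calls, intervals and assignment to anchors were tested on simulated data with known answers. Analyses used Python 3.11.15, pandas 2.3.3, numpy 2.4.6, scipy 1.17.1, pysam 0.24.0 and matplotlib 3.10.9.

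The genes, the families, the 81 other chromatin regulators and the markers were chosen with earlier results of these data known. Described in full were the 3 genes of each family with the most loops and the 3 highest and 3 lowest ratios per comparison; other genes named were chosen after their values were seen, as were the span ranges other than 100 kb. Alternatives were the distance to the start, the 5′ end alone, a value of at least 2, all loops or no divisor, 20 loops as minimum, and leaving out genes that share an anchor with another gene. Leaving out Kdm6b was added after seeing the data. Sequencing depth and reads per loop were not analysed here. One loop of the SWI/SNF genes is not reported here.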

Additional observations from a re-analysis of the deposited data

Results flagged for a closer look

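Kdm5a moved past 1.5-fold in opposite directions with the 2 factors. Its FOXA1 share of promoter loops in liver mets over tumor had a ratio of 1.69 (13 loops against 6) and its HNF4G share a ratio of 0.304 (2 loops against 9). With 1 list per group this contrast of FOXA1 with HNF4G was not tested. The ratio of the 2 ratios was 6.57, with an interval for counting error of 1.23 to 35.2. It was the only one of 26 genes compared in this way whose interval left out 1, beside 124 of 5216 genes in all (2.38%). The anchor of Kdm5a also holds the start of Ccdc77, and whether the loops belong to one gene or the other cannot be told apart.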

How the results depend on the processing

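No paired analysis was possible because each group had 1 loop list that covered both replicates, and no replicate could be left out for the same reason. Under 9 alternatives, 81 of 128 recomputed values stayed within counting error or within 1.5 times of the reported count. Keeping only loops with a value of 2 or more reversed the HNF4G ratio of shares in liver mets over tumor to 1.18 (0.704 to 1.97, from 35 loops against 31), moved the FOXA1 over HNF4G ratio in liver mets to 0.659, and left the median of the 45 genes at 0 loops in every list. Of the calls it left 0 higher and 1 lower for FOXA1 liver mets over tumor, 0 lower for HNF4G, 0 higher and 0 lower for FOXA1 over HNF4G in tumor, and 0 higher and 1 lower in liver mets, since few genes then had 10 loops. It moved the share of long loops to 95.5%, 94.7%, 80.0% and 90.3% (FOXA1 in liver mets and in tumor, then HNF4G in both), as the value follows the span, and the share with a promoter partner to 61.4% in FOXA1 liver mets and 51.4% in HNF4G liver mets. With all loops as the divisor, the interval of FOXA1 over HNF4G in tumor left out 1 (0.857, 0.751 to 0.978). Without dividing by promoter loops, the ratios were 1.10 for FOXA1 liver mets over tumor, 1.17 for FOXA1 over HNF4G in tumor and 1.61 in liver mets, which follow the longer FOXA1 lists; 8 genes were then higher for FOXA1 liver mets, 7 higher and 3 lower for FOXA1 over HNF4G in tumor, and 14 higher and 0 lower in liver mets. A minimum of 20 loops left 0 higher for FOXA1 liver mets over tumor, 1 lower for HNF4G, 0 higher and 2 lower for FOXA1 over HNF4G in tumor, and 1 higher and 0 lower in liver mets, with fewer genes compared. Within 5 kb of a start, 1 gene was higher for FOXA1 liver mets over tumor and the promoter partner shares were 69.2%, 71.3%, 70.7% and 75.1%, in the same order of lists. With starts inside the anchor they were 45.1%, 43.6%, 48.2% and 48.4%, and with the 5′ end alone 46.4%, 45.2%, 49.8% and 51.5%, where 4 genes were higher for FOXA1 over HNF4G in tumor. These shares count fewer or more starts by construction.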
